A study of Mus musculus with 9 samples.

Results

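The comparison set 6 libraries of type 1 conventional dendritic cells (cDC1) from nodes draining pancreatic neoplasia, taken as 1 arm, against 3 libraries of cDC1 from nodes of the Healthy stage, and asked what both stages of neoplasia shared. The arm was formed from the stage in the labels, 3 PanIN and 3 Tumor libraries, so that all 9 libraries of the series were used. PanIN is pancreatic intraepithelial neoplasia, the precursor lesion of ductal pancreatic cancer. All 9 were mouse RNA-seq libraries from lymph nodes beside the pancreas. The title names KPC, a mouse line that develops pancreatic tumors, but the labels give no genotype, strain, age or treatment for any group. They do not say which animals served as Healthy controls, nor whether a library came from 1 animal or a pool. The p-values therefore reflect library-to-library variation alone, part or all of which may be technical. The libraries held 32150281 to 68934430 estimated counts.

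cDC1 take up material from dying cells and present its antigens on MHC class I to cytotoxic T cells, and they need the transcription factors Irf8 and Batf3. After sensing type I interferon or microbial signals they mature: they display costimulatory ligands, secrete cytokines and move to the node under the chemokine receptor Ccr7. Type I interferon acts through the kinases Jak1 and Tyk2 on a set of antiviral genes, while NF-kB kinases drive much of the maturation set, and Socs proteins restrain the JAK kinases.

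The labelled cell type was checked against its markers. In all 9 libraries the chemokine receptor Xcr1 stood at 249 to 1081 CPM (counts scaled to library size with TMM factors), and Irf8 at 1025 to 3330 CPM. The T cell gene Cd3e reached at most 37 CPM and the neutrophil gene Ly6g 0.499 CPM. A few features of the libraries touch the results that follow. Healthy 2 held Ccr7 at 57.2 CPM and Fscn1, the actin bundler of mature dendritic cells, at 145 CPM, against at least 419 and 1335 CPM in the 8 other libraries. Healthy 3 held 1.78% of its counts in the 7SL RNA gene Rn7s1, against 0.263% to 0.765% in the others. Healthy 1, PanIN 1 and Tumor 1 share a code in their titles, whose meaning the labels do not give. Every other library carries a code of its own. None of 9 measures per library, among them depth and the levels of Ccr7, Fscn1 and Rn7s1, separated the arms by an exact two-sided permutation test over 84 assignments: raw p ran from 0.119 to 0.619, and 0.0238 was the smallest the design allows.

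Across 24133 genes tested, no gene was called between the neoplasia and Healthy libraries (edgeR quasi-likelihood test, Benjamini-Hochberg adjusted p under 0.05). The smallest adjusted p was 0.112. At an unadjusted p under 0.05, 1600 genes were higher in neoplasia (6.63%) and 2614 were lower (10.8%). The test of a difference in each stage, which takes the larger of the 2 stage p-values, also called 0 genes, with a smallest adjusted p of 0.648, and 686 genes (2.84%) were higher and 1069 (4.43%) lower in both stages with the larger p under 0.05. Other tools gave calls: DESeq2 called 583 higher and 996 lower, limma-voom with sample weights 774 and 2061, and limma-trend on log2(TPM + 1) 9 and 8. The count also turned on single libraries, with 342 higher and 1916 lower calls without Healthy 2 and 19 higher and 2 lower without Healthy 1. The median log2 fold change of all genes was -0.08, and the split of genes at unadjusted p under 0.05 depended on scaling. Genes higher in neoplasia made up 38% of them with counts, 68.8% on log2(TPM + 1), where the median was 0.03, and 69.4% without Healthy 3.

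A second description needs no model: in 878 genes (3.64%) all 6 neoplasia libraries lay above all 3 Healthy libraries, and in 591 (2.45%) all 6 lay below. The 878 genes above had a median log2 fold change of 0.93 and were fairly abundant, with a median of 4.25 log2 CPM against 2.04 over all genes. The 591 genes below had a median of -1.22 and were scarcer, at a median of 1.40 log2 CPM. In 70.1% of the genes below, Healthy 3 was the highest Healthy library, against 43.1% of all genes. Among the genes above, Healthy 1 was the highest Healthy library in 54.7%, against 20.8% of all genes. Scaling mattered here too: with TMM-scaled CPM, unscaled CPM and the deposited TPM all required to show no overlap, 411 genes (1.7%) stayed above and 159 (0.659%) below. Of the 878 and 591 genes, 3.42% and 5.75% had an unadjusted p under 0.05 between Tumor and PanIN, against 4.54% of all genes.

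The 10 genes above Healthy with the smallest p were Isg15, Zc3h7a, Gpr137b, Trip6, Mov10, Myo1h, Mir142hg, Socs3, Insl3 and Acap1. None passed the edgeR test. All 10 were among the 583 of 24133 genes that DESeq2 called higher. They were picked by p from the same counts, so those calls are no separate support. Isg15, a ubiquitin-like protein induced by type I interferon, lies on the minus strand at chr4:156199424-156200818 (GRCm38). It stood at 16.6, 18.3 and 10.1 CPM in Healthy 1 to 3, 38.2, 46.1 and 46.5 CPM in PanIN, and 44.6, 44.4 and 37.8 CPM in Tumor. Every neoplasia library thus held over 2-fold the highest Healthy value, and the stages lay on top of each other. Its log2 fold change was 1.52 ± 0.23 (SE; n = 6 and 3; edgeR adjusted p = 0.112), with 1.54 in PanIN and 1.50 in Tumor, and 5 of 21 alternative settings called it.

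Zc3h7a, a zinc finger protein that binds RNA, stood at 75.1, 61.2 and 48.4 CPM in Healthy, and at 145 to 281 CPM (median 188) in neoplasia. This gave a log2 fold change of 1.73 ± 0.27 (edgeR adjusted p = 0.112). Gpr137b, a lysosomal membrane protein, stood at 55.2, 31.2 and 34.7 CPM against 90.3 to 136 CPM (median 103), a log2 fold change of 1.46 ± 0.24. For both genes the lowest neoplasia library lay well clear of the highest Healthy one. Trip6, a LIM domain adaptor, stood at 7.93, 7.06 and 5.02 CPM in Healthy and at 16.3 to 46.2 CPM (median 27.7) in neoplasia. Mov10, an RNA helicase with antiviral activity, stood at 16.6, 11.2 and 14.8 CPM against 25.7 to 40.9 CPM (median 37.4). Their log2 fold changes were 2.18 ± 0.38 and 1.32 ± 0.23 (edgeR adjusted p = 0.118 for each), and by TPM the arms of Mov10 overlapped.

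Mir142hg, the host transcript of the hematopoietic microRNA miR-142, stood at 4.94, 1.71 and 1.87 CPM in Healthy and 9.6 to 14.8 CPM (median 11.8) in neoplasia. It was called by 6 of 20 alternatives. Socs3, the inhibitor of JAK kinases downstream of IL-6 family receptors, stood at 14.2, 12.9 and 11.8 CPM in Healthy. In neoplasia it stood at 22.1 to 38.2 CPM (median 30.6), and its log2 fold change was 1.24 ± 0.23 (edgeR adjusted p = 0.118). Its Healthy values were close together, with an SD of 1.19 CPM, but by TPM its arms overlapped. Acap1, an Arf GTPase-activating protein, Myo1h, an unconventional myosin, and Insl3, a relaxin-like hormone, had log2 fold changes of 1.35 ± 0.25, 2.08 ± 0.38 and 2.11 ± 0.39. Insl3 was scarce, at no more than 5.06 CPM in any library. In all 3 scalings 7 of these 10 genes kept their arms apart; the exceptions were Mov10, Myo1h and Socs3.

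**Figure D1:**
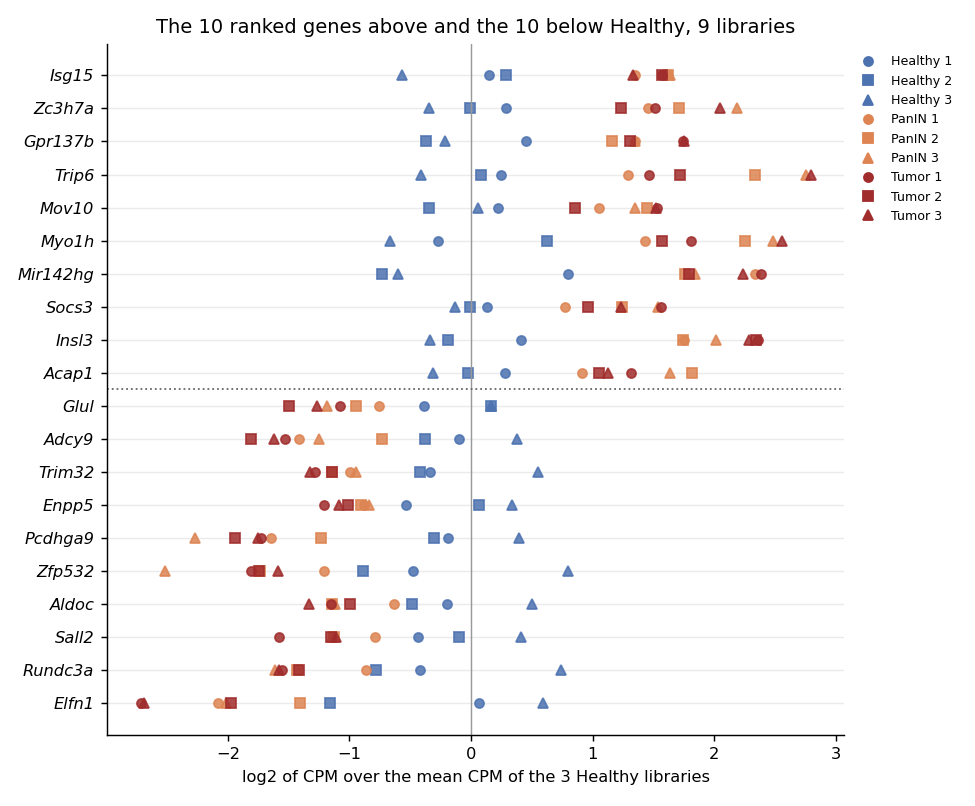
Expression in each of the 9 libraries of the 10 genes above and the 10 below Healthy with the smallest p, as the log2 of CPM over the mean CPM of the 3 Healthy libraries (x axis; blue Healthy, orange PanIN, red Tumor; symbols give the library number). Upper genes have all orange and red points to the right of the blue ones, lower genes all to the left, and in the lower genes the rightmost point is Healthy 3, level with Healthy 2 for Glul at 304 CPM.

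The 10 genes below Healthy with the smallest p were Glul, Adcy9, Trim32, Enpp5, Pcdhga9, Zfp532, Aldoc, Sall2, Rundc3a and Elfn1. None passed the edgeR test, and all 10 were among the 996 of 24133 genes that DESeq2 called lower. These too were picked by p from the same counts. Glul, glutamine synthetase, at chr1:153899944-153909723 on the plus strand, stood at 208, 304 and 304 CPM in Healthy, 161, 141 and 120 CPM in PanIN, and 129, 96.3 and 113 CPM in Tumor. The log2 fold change was -1.10 ± 0.21 (edgeR adjusted p = 0.118). It was the most abundant of the 10, and its arms stayed apart in all 3 scalings, as did those of Sall2 and Pcdhga9.

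Adcy9, an adenylate cyclase that makes cyclic AMP, stood at 16.6, 13.6 and 23 CPM in Healthy and at 5.06 to 10.7 CPM (median 6.41) in neoplasia, a log2 fold change of -1.35 ± 0.28. Aldoc, a fructose-bisphosphate aldolase, stood at 74.5, 61.3 and 121 CPM against 33.9 to 55.1 CPM (median 39.1), a log2 fold change of -1.04 ± 0.23. Trim32, a ubiquitin ligase, stood at 22.7, 21.5 and 42.1 CPM against 11.5 to 14.9 CPM (median 13). In these 3 genes Healthy 3 was the highest library, and by TPM their arms overlapped. Enpp5, a membrane pyrophosphatase family member, and the zinc finger factor Sall2 had log2 fold changes of -0.98 ± 0.21 and -1.13 ± 0.25. Zfp532, Rundc3a and Elfn1 had values of -1.72, -1.38 and -2.08. Their arms, and those of Aldoc, overlapped both by TPM and in CPM without TMM factors. Pcdhga9 shares exons with the other genes of its protocadherin cluster, so its counts are uncertain.

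Type I interferon genes gave the largest share of non-overlapping members among the lists of pathway genes examined. A log2 fold change above 0 was found in 41 of 42 genes measured, against 44% of all genes, and the list's median was 0.75 against -0.08 over all genes. In 13 of 42 (31%), against 3.64% of all genes, every neoplasia library lay above every Healthy one, and in 0 did they lie below. No member passed the edgeR test, and 21 had an unadjusted p under 0.05, all higher, against 6.63% of all genes. With all 3 scalings required to agree, 7 of 42 (16.7%) remained, against 1.7% of all genes: Isg15, Oasl2, Zbp1, Oas1a, Mx2, Oas3 and Ifit1. The number at unadjusted p under 0.05 was 17, 28 and 16 without Healthy 1, 2 or 3. The count over all genes moved as well. It was 1932 higher and 2461 lower of 25773 without Healthy 1, and 2430 and 3949 of 25589 without Healthy 2. Without Healthy 3 it was 1282 and 566 of 24728. The list's median was 0.42 within the 3 libraries of the shared title code and 0.85 in the 6 others.

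Many promoters induced by interferon carry interferon-stimulated response elements, the sites bound by the STAT and IRF factors that interferon activates. The core searched was GAAA, any 2 bases and GAAA, on either strand and with overlapping matches counted, in the RefSeq window from 250 bases before to 50 after each start (GRCm38.p6). Of the 42 list genes 31 matched the table, and 17 of them (54.8%) held the core, against 566 of 14102 tested genes with a window (4.01%). Among all 878 genes above Healthy, 573 matched and 3.66% held it. Of the 13 non-overlapping members 9 matched, and Isg15, Rsad2, Oas1a, Oas3 and Ifit1 held the core. The windows of 4 are shown to let the letters be compared between genes of unlike stage pattern, as the 250 bases before the start, 5′ to 3′ on the gene's strand, with matches in capitals. Their positions are chr4:156200819-156201068 (minus strand) for Isg15, chr12:26456453-26456702 (minus) for Rsad2, chr5:120777660-120777909 (minus) for Oas3 and chr19:34640639-34640888 (plus) for Ifit1.
Isg15: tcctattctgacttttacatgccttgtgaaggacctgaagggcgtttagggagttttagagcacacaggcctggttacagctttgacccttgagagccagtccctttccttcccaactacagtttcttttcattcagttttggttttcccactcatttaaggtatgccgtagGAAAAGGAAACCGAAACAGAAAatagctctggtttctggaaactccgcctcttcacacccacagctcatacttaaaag
Rsad2: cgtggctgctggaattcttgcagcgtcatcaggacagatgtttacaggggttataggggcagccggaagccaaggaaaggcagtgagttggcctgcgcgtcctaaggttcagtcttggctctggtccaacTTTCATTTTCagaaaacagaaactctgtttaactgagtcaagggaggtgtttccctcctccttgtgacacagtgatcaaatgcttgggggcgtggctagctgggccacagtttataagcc
Oas3: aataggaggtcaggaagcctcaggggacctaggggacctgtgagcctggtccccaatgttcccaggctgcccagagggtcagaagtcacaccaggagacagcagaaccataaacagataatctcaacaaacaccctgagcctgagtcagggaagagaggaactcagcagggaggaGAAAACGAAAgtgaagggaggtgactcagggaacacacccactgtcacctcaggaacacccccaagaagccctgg
Ifit1: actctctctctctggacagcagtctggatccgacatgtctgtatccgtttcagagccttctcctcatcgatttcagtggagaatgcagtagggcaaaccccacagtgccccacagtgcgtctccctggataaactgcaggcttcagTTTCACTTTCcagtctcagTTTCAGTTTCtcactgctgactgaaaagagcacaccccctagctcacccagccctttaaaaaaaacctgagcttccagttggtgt
Isg15 held 3 overlapping matches, the first starting 78 bases before the start and the last 66. Oas3 held 1 match 75 bases before its start, and Rsad2 1 match at 120, on the opposite strand. Ifit1 held 2, at 104 and 85, also on the opposite strand. A match describes these letters and is no measurement of binding.

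Effectors of the interferon response differed in how evenly the stages shared the distance from Healthy. Oasl1, an oligoadenylate synthetase-like inhibitor of Irf7 translation, stood at 33.8, 7.35 and 10.7 CPM in Healthy, 51.2, 45.1 and 62.9 CPM in PanIN, and 62.8, 36.8 and 49.9 CPM in Tumor. Its stage log2 fold changes were close, 1.62 and 1.53, though Healthy 1 came near the lowest neoplasia library. Mx1, a dynamin-like GTPase that blocks viral nucleocapsids, stood at 74.3, 39.7 and 38.9 CPM in Healthy and at 87.5 to 234 CPM (median 136) in neoplasia, a log2 fold change of 1.50 ± 0.32. Zbp1, a sensor of Z-form nucleic acid, stood at 23.5, 29.7 and 14.5 CPM against 42.9 to 88.5 CPM (median 49.4), a log2 fold change of 1.32 ± 0.29. Rsad2, the antiviral enzyme viperin, stood at 9.1, 11.3 and 4.93 CPM against 13.8 to 31.2 CPM (median 22.5). Its log2 fold change was 1.39 ± 0.32 (edgeR adjusted p = 0.118 for these 3 genes). These 3 lay further from Healthy in PanIN than in Tumor, at 1.76 and 1.18 for Mx1, 1.55 and 1.04 for Zbp1, and 1.60 and 1.14 for Rsad2.

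Others lay much nearer Healthy in Tumor than in PanIN. Oas3, which makes the oligoadenylates that activate RNase L, stood at 7.59, 5.38 and 5.72 CPM in Healthy, 14.9, 35.5 and 31.9 CPM in PanIN, and 8.84, 11.2 and 8.65 CPM in Tumor. The stage log2 fold changes were 2.14 in PanIN and 0.62 in Tumor, a difference of -1.52 ± 0.34 (edgeR unadjusted p = 7.47e-04, adjusted p = 1). Xaf1, a binding partner of XIAP, stood at 7.59, 11.8 and 8.04 CPM in Healthy, 26, 49.4 and 55.6 CPM in PanIN, and 19.7, 21.6 and 23.5 CPM in Tumor. Mx2 differed between stages by -1.21 ± 0.43 and Oas1a by -0.79 ± 0.27. Between Tumor and PanIN 0.0124% of all genes tested were called, none of them named here, and 11 of the 108 genes followed had an unadjusted p under 0.05, against 4.54% of all genes. The list median was 1.17 in PanIN and 0.30 in Tumor. PanIN 2 and PanIN 3 were the highest libraries for all 13 non-overlapping members except Oasl1 and Rsad2. They also had the highest summed neutrophil markers, 51.6 and 36.6 CPM against 2.89 to 15.2 CPM elsewhere. The part of those cells in the values was not tested. Markers of plasmacytoid dendritic cells, known makers of interferon, summed to 243 to 305 CPM in Healthy and 202 to 275 CPM in neoplasia.

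**Figure D2:**
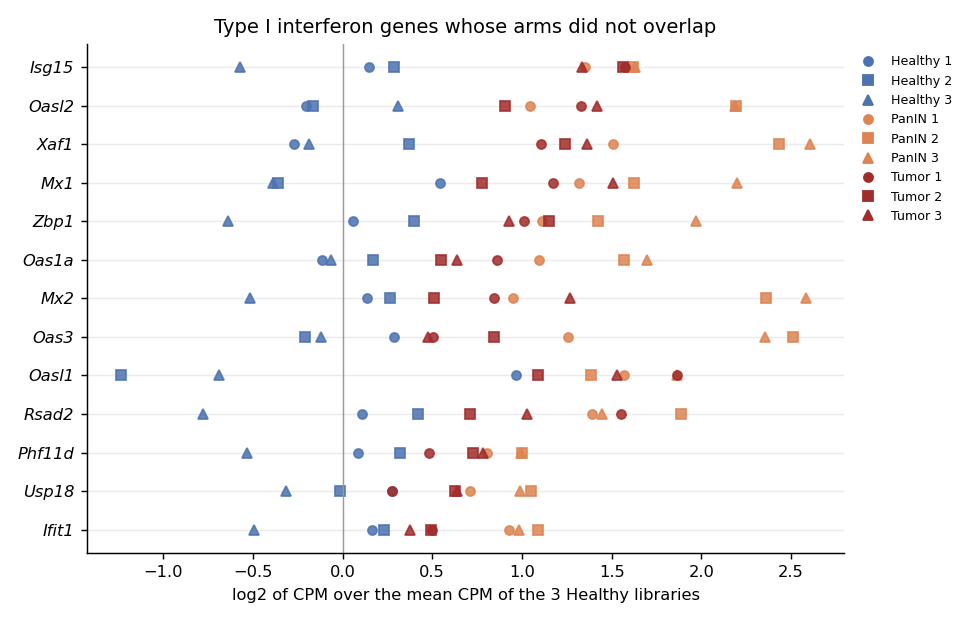
The 13 type I interferon genes whose neoplasia libraries all lay above Healthy, as the log2 of CPM over the Healthy mean in each of 9 libraries (x axis; blue Healthy, orange PanIN, red Tumor; symbols give the library number). Isg15 shows both stages together between 37.8 and 46.5 CPM. PanIN 2 and PanIN 3 lie to the right of all Tumor libraries in every gene shown but Oasl1 and Rsad2. The gap is narrow for Isg15 and wide for Oas3, Mx2 and Xaf1.

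The IFITM membrane proteins, which block viral entry, lay higher in Tumor than in PanIN in 3 of 6 genes measured, Ifitm1, Ifitm2 and Ifitm6. In Ifitm2 alone of the 6 (16.7%, against 3.64% of all genes) every neoplasia library lay above Healthy. Ifitm2 stood at 16.7, 16.5 and 18.3 CPM in Healthy, 27, 33.5 and 45.1 CPM in PanIN, and 99.5, 93.5 and 58.9 CPM in Tumor. The 3 stages did not overlap. The pooled log2 fold change was 1.80 ± 0.40 (edgeR adjusted p = 0.118), and Tumor exceeded PanIN by 1.26 ± 0.26 (unadjusted p = 3.80e-04, adjusted p = 0.788). Ifitm3 stood at 31.4, 46.2 and 26.9 CPM in Healthy and 45.9 to 126 CPM (median 69.1) in neoplasia, so that its arms met at Healthy 2 and Tumor 3. Ifitm2 and Ifitm3 sit close together on chr7 and resemble each other, so reads may be shared between them.

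Interferon gamma genes had a pooled median of 0.38, with 0.52 in PanIN and 0.31 in Tumor, against 1.17 and 0.30 for the type I list; the difference between the lists was not tested. Values above 0 were found in 21 of 24 genes measured, against 44% of all genes. The median was 0.59 without Healthy 2 and 0.21 without Healthy 3. An unadjusted p under 0.05 was found for 6 members, all higher, against 6.63% of all genes. The median was 0.23 within the title code and 0.61 outside it. Only Ifngr2 and Jak2 (8.33%, against 3.64% of all genes) had arms that did not overlap, and neither kept them apart in all 3 scalings. Jak2, the kinase of the interferon gamma receptor, stood at 391, 384 and 220 CPM in Healthy and at 422 to 512 CPM (median 475) in neoplasia, a log2 fold change of 0.50 ± 0.23. Nlrc5, the activator of MHC class I genes, stood at 157, 108 and 57.7 CPM against 141 to 404 CPM (median 258), a log2 fold change of 1.38 ± 0.36. In the MHC class I list 14 of 18 members were above 0 (median 0.37), and H2-Q4 alone did not overlap (5.56%, near the 3.64% of all genes), at 479, 192 and 223 CPM in Healthy against 485 to 832 CPM. H2-Q4 has near-identical relatives in its cluster, so its counts are uncertain.

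For IL-6, JAK and STAT3 signalling genes the stage medians lay close, at 0.52 in PanIN and 0.50 in Tumor. Single members differed more by stage. Il6ra, the IL-6 receptor gene, had 0.07 in PanIN and -0.72 in Tumor, and Cebpb had -0.24 and 0.51. Of 23 genes 18 were positive, against 44% of all genes, and 9 were higher at an unadjusted p under 0.05, against 6.63% of all genes. Those under 0 were Il6ra, Il6st, Jak1, Junb and Ptpn11, at -0.27, -0.08, -0.12, -0.20 and -0.36. In 5 (21.7%, against 3.64%) the arms did not overlap: Socs3, Bcl3, Pias3, Jak2 and Tyk2. None of the 5 kept its arms apart in all 3 scalings. Pias3, an inhibitor of STAT3, stood at 39.1, 12.6 and 25.6 CPM in Healthy and 41.9 to 79.7 CPM (median 52.5) in neoplasia, a log2 fold change of 1.17 ± 0.32. Tyk2 stood at 229, 243 and 114 CPM against 249 to 364 CPM (median 295), a log2 fold change of 0.62 ± 0.26. Stat3 itself stood at 312, 244 and 163 CPM against 307 to 365 CPM (median 330), so its arms met at Healthy 1, and its log2 fold change was 0.47 ± 0.22 (edgeR adjusted p = 0.3). The list's median of 0.47 became 0.28 without Healthy 3, and was 0.21 within the shared title code and 0.71 outside it.

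NF-kB and TNF signalling genes showed a similar count, with 27 of 30 positive, a median of 0.58 and 6 (20%) not overlapping, against 44% of all genes positive and 3.64% not overlapping. The 6 were the kinases Map3k8, Map3k14, Ikbkb and Ripk2, the adaptor Traf1 and Bcl3, a nuclear IkB protein. By stage the list's median was 0.42 in PanIN and 0.75 in Tumor. Of its 30 members 24 lay higher in Tumor than in PanIN, against 11060 of all 24133 genes. Map3k8, a MAP kinase kinase kinase activated downstream of Toll-like and TNF receptors, stood at 16.7, 11 and 6.33 CPM in Healthy, 31.3, 25.9 and 38.7 CPM in PanIN, and 54.2, 22.6 and 36 CPM in Tumor. Its log2 fold change was 1.62 ± 0.34 (edgeR adjusted p = 0.118). It was the 1 of 30 members (3.33%) whose arms stayed apart in all 3 scalings, against 1.7% of all genes. Ikbkb, the IkB kinase beta, stood at 144, 108 and 86.6 CPM against 169 to 249 CPM (median 207), a log2 fold change of 0.89 ± 0.23. Map3k14, the kinase of the noncanonical pathway, stood at 105, 68.9 and 46.9 CPM against 112 to 209 CPM (median 126). In all 3 kinases Healthy 1 was the highest Healthy library and Healthy 3 the lowest. An unadjusted p under 0.05 was found for 13 members, all higher, against 6.63% of all genes. It was found for 21 without Healthy 1, where the median was 0.91, for 10 without Healthy 2 and for 8 without Healthy 3. The counts over all genes also moved between these settings, as given for the type I interferon list. The median was 0.31 within the shared title code and 0.80 outside it.

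Maturation genes had the highest median among the pathway lists, 0.99, with 29 of 30 positive, against 44% of all genes. Yet only Traf1 and Tnfsf9 (6.67%, against 3.64% of all genes) did not overlap. The stages did not share the distance evenly, with a median of 0.62 in PanIN and 1.32 in Tumor. All 30 members lay higher in Tumor than in PanIN, against 11060 of all 24133 genes. Tnfsf9, the costimulatory ligand 4-1BBL, stood at 4.53, 1.99 and 2.66 CPM in Healthy, 9.15, 7.12 and 7.47 CPM in PanIN, and 16.8, 9.72 and 17.1 CPM in Tumor. This 4-1BBL transcript had a log2 fold change of 1.88 ± 0.41 (edgeR adjusted p = 0.118). Its arms alone of the 30 (3.33%) stayed apart in all 3 scalings, against 1.7% of all genes. Ccr7 stood at 1265, 57.2 and 419 CPM in Healthy and at 666 to 2602 CPM (median 1307) in neoplasia. Fscn1 stood at 3494, 145 and 1597 CPM against 1335 to 6798 CPM (median 3757). For both, Healthy 1 lay inside the neoplasia range and Healthy 2 far under it, and the log2 fold changes were 1.28 ± 0.68 and 1.15 ± 0.70 (edgeR adjusted p = 0.366 and 0.444). With Healthy 1 as the sole Healthy library the list's median was 0.33, and 1 member had an unadjusted p under 0.05; the spread of that library is then assumed to equal that of the others. Over all 3 Healthy libraries 13 members had an unadjusted p under 0.05, all higher, against 6.63% of all genes. The number was 25 without Healthy 1, where the median was 1.70, 9 without Healthy 2, where it was 0.65, and 7 without Healthy 3. The counts over all genes in these settings are those given for the type I interferon list. Within the shared title code the median was 0.57, and outside it 1.59. In these bulk libraries a different share of mature cells and a different amount of RNA per cell cannot be told apart.

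Costimulatory and cytokine genes mostly overlapped. Cd40 stood at 135, 62.4 and 97.4 CPM in Healthy and 102 to 263 CPM (median 178) in neoplasia, and Cd80 had a log2 fold change of 0.73 ± 0.28. Il12b, a subunit of IL-12, stood at 81.7, 6.3 and 26.9 CPM against 48.4 to 136 CPM (median 79.5), again with Healthy 1 inside the neoplasia range. Il1b stood at 28.4, 14.7 and 13.7 CPM in Healthy, 33.5, 23.4 and 28.2 CPM in PanIN, and 69.5, 64 and 51.4 CPM in Tumor, so that PanIN met Healthy while Tumor did not. The chemokine gene Ccl17 also lay higher in Tumor, at 103, 25.9 and 54.4 CPM against 19.8, 17.7 and 12.4 CPM in PanIN, a difference of 1.88 ± 0.47 (unadjusted p = 0.00174, adjusted p = 1). Of 27 measured cytokines and chemokines 24 were positive, against 44% of all genes, and 0 had arms that did not overlap. Their median was 0.55, with 0.39 in PanIN and 0.89 in Tumor.

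**Figure D3:**
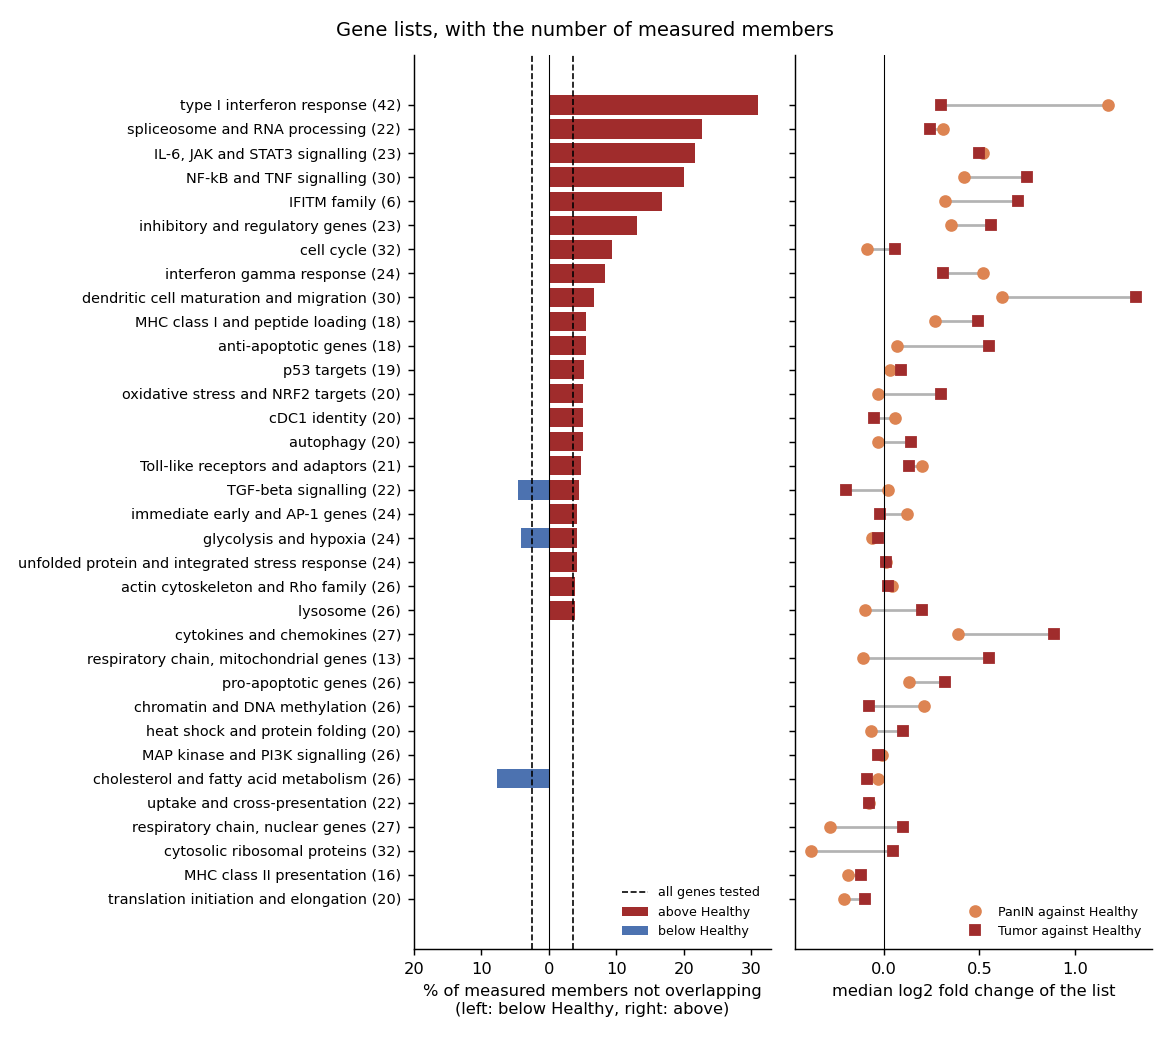
Left, the percent of measured members of each gene list whose 6 neoplasia libraries all lay above (red) or below (blue) the 3 Healthy libraries, with dashed lines at 3.64% and 2.45% for all genes tested. Right, the median log2 fold change of each list in PanIN and in Tumor; type I interferon has the longest red bar, 31%, with medians of 1.17 and 0.30.

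Among inhibitory and regulatory genes, a list of checkpoint ligands and receptors, suppressive enzymes and cytokines, and Socs proteins, 3 of 23 (13%, against 3.64% of all genes) lay above Healthy in every neoplasia library. In all 3 scalings 1 of 23 did (4.35%, against 1.7% of all genes). Cd274, which encodes the checkpoint ligand PD-L1, stood at 65, 20.3 and 42.2 CPM in Healthy, 105, 76.2 and 93.5 CPM in PanIN, and 230, 104 and 151 CPM in Tumor. Its log2 fold change was 1.57 ± 0.40 (edgeR adjusted p = 0.118), with 1.11 in PanIN and 1.92 in Tumor, and it was the member whose arms stayed apart in all 3 scalings. Lag3, a receptor for MHC class II, stood at 8.78, 7.43 and 6.91 CPM against 9.21 to 16.2 CPM (median 10.9), a log2 fold change of 0.66 ± 0.27. The third was Socs3. Pdcd1lg2, the other ligand of PD-1, stood at 32.2, 2.52 and 16.4 CPM in Healthy and 24.2 to 71 CPM (median 40.7) in neoplasia, and Healthy 1 lay within that range.

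The identity genes of cDC1 showed little shift as a group with counts, with 11 of 20 positive and a median of 0.04. On log2(TPM + 1) 15 of 20 were positive and the median was 0.32, against 0.03 over all genes. Batf3 was the only member whose arms did not overlap (5%, near the 3.64% of all genes), at 84.3, 91.6 and 58.3 CPM in Healthy and 93.5 to 165 CPM (median 121) in neoplasia. Its log2 fold change was 0.68 ± 0.23 (edgeR adjusted p = 0.14). The arms stayed apart in all 3 scalings (5% of the list, against 1.7% of all genes). Zbtb46, a factor of conventional dendritic cells, had a log2 fold change of 0.63 ± 0.25 and Id2, which dendritic cells need to develop, 0.65 ± 0.28. MHC class II genes had a median of -0.15 with 4 of 16 positive, and uptake genes of -0.04 with 10 of 22, with 0 members apart from Healthy in either. Both signs turned on log2(TPM + 1), to 0.17 with 12 of 16 positive and 0.13 with 14 of 22.

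Genes that control survival and division included few members apart from Healthy, 1 of 18 anti-apoptotic genes (5.56%) and 3 of 32 cell cycle genes (9.38%), against 3.64% of all genes; the first share is near that of all genes. In all 3 scalings 0 members of either list stayed apart. Mcl1, an anti-apoptotic Bcl2 protein, stood at 530, 533 and 340 CPM in Healthy and 559 to 708 CPM (median 607) in neoplasia, a log2 fold change of 0.42 ± 0.23. Cflar, an inhibitor of caspase-8, had a log2 fold change of 0.98 ± 0.29 and Pmaip1, the pro-apoptotic protein Noxa, 0.75 ± 0.24, both with overlapping arms. The D-type cyclin Ccnd2 stood at 70.9, 34.1 and 51.9 CPM against 73.3 to 130 CPM (median 99.5), and the cell cycle inhibitor Cdkn1b at 64.5, 57.5 and 38.3 CPM against 69.5 to 115 CPM (median 83.9). Cyclin and inhibitor thus both lay above Healthy in CPM with TMM factors, with log2 fold changes of 0.97 ± 0.26 and 0.67 ± 0.23. Without those factors the arms of Mcl1, Ccnd2 and Cdkn1b overlapped, and by TPM those of Mcl1 and Cdkn1b.

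Of 22 spliceosome and RNA processing genes, 17 were positive and 5 (22.7%) did not overlap, against 44% and 3.64% of all genes, and 3 were higher at an unadjusted p under 0.05, against 6.63% of all genes. The median was 0.29, against 0.47 without Healthy 2 and 0.11 without Healthy 3, and 0.21 and 0.37 within and outside the title code. Srsf5, a splicing factor of the SR family, stood at 215, 228 and 142 CPM in Healthy, 232, 365 and 442 CPM in PanIN, and 369, 320 and 330 CPM in Tumor. Srsf5 had a log2 fold change of 0.81 ± 0.25 (edgeR adjusted p = 0.123). Of the 5 it alone kept its arms apart in all 3 scalings (4.55% of the list, against 1.7% of all genes). Luc7l2, a component tied to the U1 particle, stood at 135, 136 and 135 CPM in Healthy and 151 to 200 CPM (median 165) in neoplasia, a small difference of 0.34 ± 0.18 with a narrow Healthy spread. Snrnp70, Rbm39 and Ddx5 had log2 fold changes of 0.57 ± 0.21, 0.83 ± 0.22 and 0.36 ± 0.24.

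**Figure D4:**
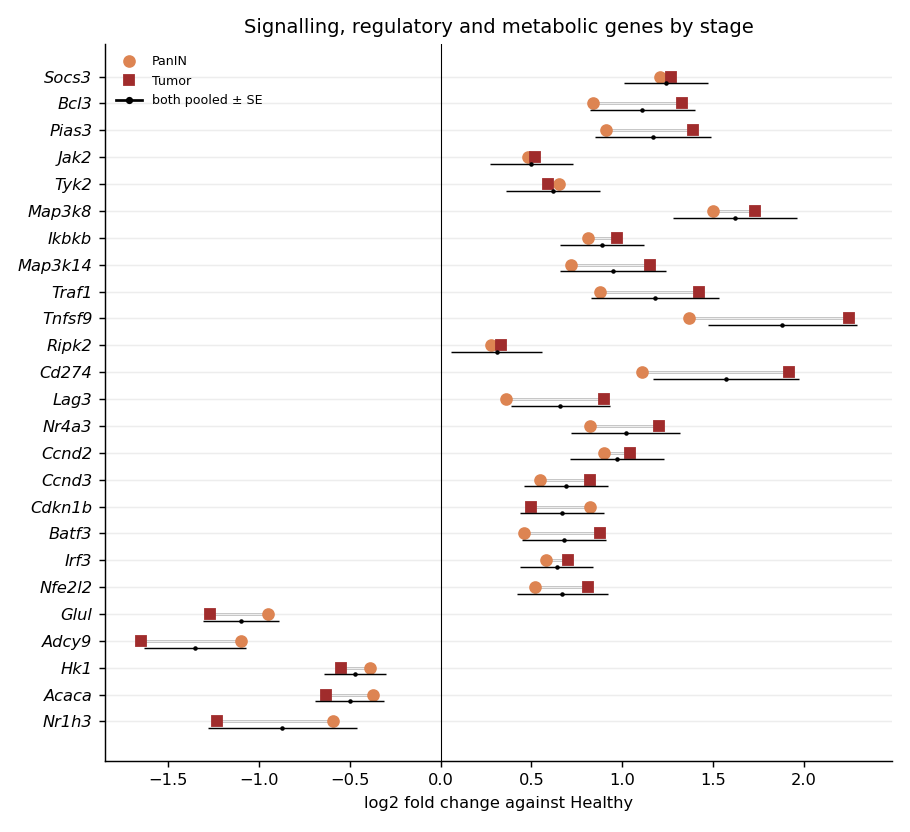
Log2 fold change against Healthy of 25 signalling, regulatory and metabolic genes in PanIN (orange circle) and in Tumor (red square), with both stages pooled and its SE in black. Stages lie close for Socs3, 1.21 and 1.27, and apart for Cd274, 1.11 and 1.92; genes under 0 lie further from Healthy in Tumor.

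Of the pathway lists 3 held members below Healthy in every neoplasia library, against 2.45% of all genes. They were 1 of 24 glycolysis and hypoxia genes (4.17%), Hk1, the first enzyme of glycolysis, and 1 of 22 TGF-beta signalling genes (4.55%), Ski, a repressor of Smad proteins. Among cholesterol and fatty acid genes 2 of 26 (7.69%) did so, Acaca, which makes malonyl-CoA for fatty acid synthesis, and Nr1h3, the oxysterol receptor LXR alpha. Acaca stood at 50.5, 65.5 and 60 CPM in Healthy and 31.4 to 48.2 CPM (median 43.7) in neoplasia, a log2 fold change of -0.50 ± 0.19 (edgeR adjusted p = 0.184). Hk1 stood at 75.7, 73.9 and 94.7 CPM against 51.5 to 69.7 CPM (median 58.2), a log2 fold change of -0.47 ± 0.17. None of the 4 kept its arms apart in all 3 scalings. Fasn, the fatty acid synthase, had a log2 fold change of -0.72 ± 0.25 with overlapping arms, and its direction turned on log2(TPM + 1) and log2(TPM + 0.1), to 0.12 on each.

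Ctse, an aspartic protease, had the largest negative fold change of the genes followed, and its arms overlapped. It stood at 6.13, 209 and 77.9 CPM in Healthy and 3.67 to 27.4 CPM (median 5.54) in neoplasia, a log2 fold change of -3.44 ± 0.77 (edgeR adjusted p = 0.118). Healthy 1 lay inside the neoplasia range, and without Healthy 2 and Healthy 3 the log2 fold change was 0.55. Endocrine islet markers were all lower, with 0 of 6 positive and a median of -1.22; they summed to 81.9, 38 and 173 CPM in Healthy and 31.2 to 61.5 CPM in neoplasia, while Ins1, Ins2 and Ppy were at 0 in all libraries. An unadjusted p under 0.05 was found for 5 of them, all lower, against 10.8% of all genes. Without Healthy 3, where the median was -0.63, it was found for 0 of them, and 566 of 24728 genes were lower.

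Marker sums of several other cell types varied between libraries, and for each type given here the ranges of the arms overlapped. Of 13 neutrophil markers 8 passed the filter, and these had a median log2 fold change of 4.33, all positive. Genes seen in a few neoplasia libraries alone can pass that filter, so the signs were partly set by it. The marker sums were 2.89 to 6.05 CPM in Healthy, and 51.6, 36.6 and 15.2 CPM in PanIN 2, PanIN 3 and Tumor 1. In PanIN 1, Tumor 2 and Tumor 3 they were 4.59, 4.06 and 7.07 CPM. The median was 2.85 over the 6 markers that passed without PanIN 2, and 1.81 over the 5 that passed without PanIN 3. B cell markers had a median of 1.29, with sums of 366 to 690 CPM in Healthy and 481 to 1213 CPM in neoplasia, the highest being PanIN 2, without which the median was 0.35. Plasma cell markers summed to 208 to 365 CPM in Healthy and 301 to 1473 CPM in neoplasia, and epithelial markers to 21.8 to 28.2 and 22.1 to 262 CPM, with Tumor 1 the highest in each. Monocyte and macrophage markers summed to 438 to 771 CPM in Healthy and 260 to 492 CPM in neoplasia, and Csf1r, the receptor of macrophage growth factor, had a log2 fold change of -0.81 ± 0.26. The part of these cells in the gene results was not tested.

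**Figure D5:**
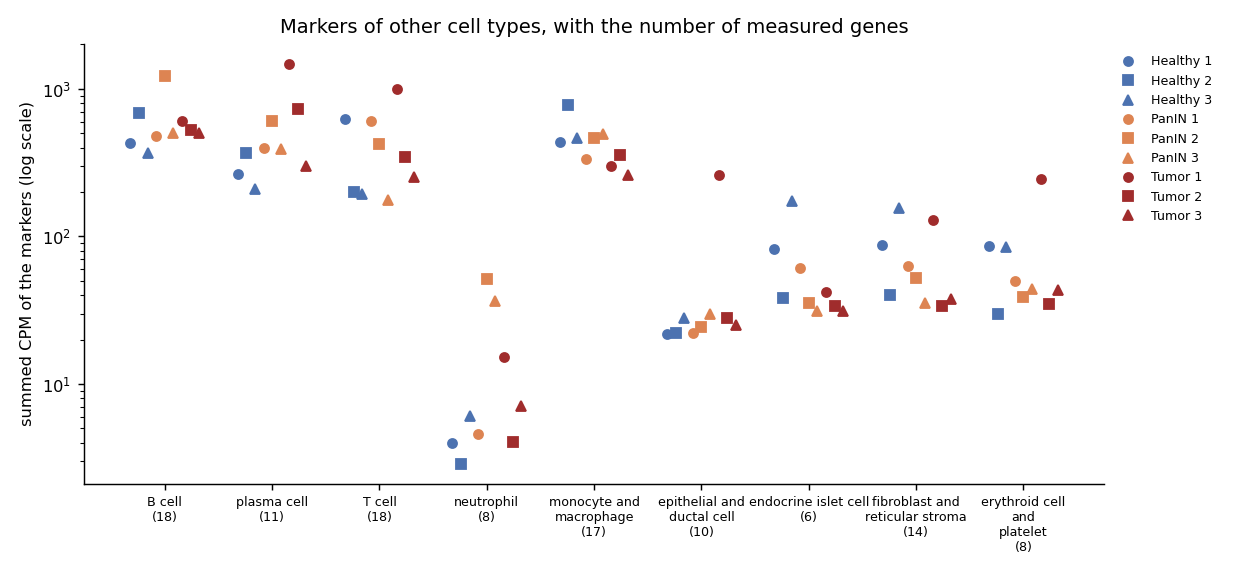
Summed CPM of the measured markers of 9 other cell types in each library (log scale; blue Healthy, orange PanIN, red Tumor; symbols give the library number). Tumor 1 stands apart for epithelial markers at 262 CPM, PanIN 2 for B cell markers at 1213 CPM, and Healthy 3 for endocrine markers at 173 CPM.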

How the data were processed

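RNA of mouse lymph node cDC1 was sequenced in 9 libraries, 3 per stage, with a column micro kit and a directional library kit, per the labels' protocols. Estimated counts and TPM per transcript are what the authors deposited; Salmon and mm10 are named, per the submitters' processing notes, and the names of the deposited tables mention sailfish, so the quantifier is open. Version, settings and strand use were not given in the sources used here. Deposited TPM were used only for alternatives, on log2(TPM + 1) and log2(TPM + 0.1), and for one of 3 scalings.

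Of 136288 transcripts, 136176 were matched by identifier to GENCODE M21 (GRCm38). Estimated counts were summed to 53458 genes and rounded, and 24133 passed filterByExpr (minimum count 10, total 15). PanIN and Tumor formed 1 arm against Healthy in edgeR 4.0.16 (R 4.3.3, TMM factors 0.83 to 1.192, quasi-likelihood F test, Benjamini-Hochberg). The common biological coefficient of variation was 56.6%. A fit with 3 stages gave stage contrasts and the larger-p test. The SE of a log2 fold change is its size over the square root of F; CPM carry TMM factors. The test was tried on simulated data for this comparison with 22568 genes. Recovery was 16.4% for 2-fold, 77.6% for 4-fold and 97% for 8-fold changes, and 7 unchanged genes were called. The larger-p test recovered 1.49%, 56.7% and 87.9%. Changes were placed only in genes of at least 1 log2 CPM, while 41.7% of genes tested lay under it. Genes were drawn independently, without shifts shared across a library, so recovery in the real libraries may differ.

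Members, lists and rules were chosen with earlier results of these data known. Named genes were up to 15 called genes per direction with arms apart and at least 1 log2 CPM, filled to 10 by smallest p, up to 4 members per list by smallest p, and a fixed set of dendritic cell genes; list members with arms apart, and the genes of the other observations, were added after their values were seen. Some genes covered by the rule are not reported here. Predicted genes, pseudogenes and receptor segments were left out of the ranking. Alternatives used DESeq2 1.42.0 and limma 3.58.1, RLE factors, other filters, fewer libraries, and a term for sharing the title code. Tables and figures used Python 3.11.15, pandas 2.3.3 and matplotlib 3.10.9.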

Additional observations from a re-analysis of the deposited data

Results flagged for a closer look

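Values of the 6 PanIN and Tumor libraries were checked for 1 library far from the others, by the gap to its nearest neighbour over the whole range; 0.625 is the 95% limit for 6 values. Chance passes it in about 1 of 20 groups, and 12 of 130 values did. Tumor 1 stood apart for epithelial markers (gap 0.967 of the range; 262 against at most 30 CPM), erythroid and platelet markers (0.928), Ctse (0.84; 27.4 against at most 7.46 CPM), Krt7, a ductal keratin (0.761), fibroblast markers (0.693) and plasma cell markers (0.63). PanIN 1 stood apart for the share of counts in Rn7s1 (0.811; 0.559% against at most 0.323%), for Rundc3a (0.784; 15.1 against at most 10.3 CPM), for Pcsk2, a prohormone convertase (0.649), and for the sum of endocrine markers (0.647). PanIN 2 stood apart for B cell markers (0.836; 1213 against at most 601 CPM). Tumor 3 stood apart for Ifngr2, a chain of the interferon gamma receptor (0.671; 137 against at most 112 CPM).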

How the results depend on the processing

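Against 0 calls in the pooled comparison, calls numbered 1579 with DESeq2, 2835 with limma-voom and sample weights, 81 with no filter, 17 on log2(TPM + 1), 6 on log2(TPM + 0.1), 2 for the mean of both stages, 3 in the 6 libraries outside the title code, 8 without Healthy 2 and Healthy 3, and 0 to 2258 when 1 library was left out. RLE factors, the stricter filter, protein-coding genes alone and a term for sharing the title code gave 0. For the test of both stages they numbered 56, 608, 18, 1, 3, 1 (outside the code) and 3 (without Healthy 2 and Healthy 3), and 0 to 5 with 1 library left out. Genes below Healthy in all libraries numbered 270 by TPM and 376 with at least 50 counts in 3 libraries. With 1 library left out, which loosens the condition by construction, 982 to 2540 genes lay above and 659 to 4107 below. limma-voom gave Healthy 1 a weight of 4.76 and Healthy 2 one of 0.196. Of the alternatives for named genes, 2072 kept direction and side of the threshold, 189 became called and 3 reversed: Fasn to 0.12 on both TPM scales, and Ctse to 0.55 without Healthy 2 and Healthy 3. No paired analysis was possible because the labels carry no replicate numbers to match single libraries. The title code is shared by 1 library of each stage and differs in every other library. The term above therefore only set the libraries that share it against all others. Differences among the other codes could not be adjusted for. In simulated data with 6 and 3 libraries, under the limits given above, 16.4% of 2-fold differences were recovered. The test of both stages recovered 1.49% of them.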

Other observations

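A few abundant nuclear or splicing-linked genes outside the lists, chosen after their values were seen, also lay above Healthy in every neoplasia library in all 3 scalings. Neat1, the noncoding RNA that builds paraspeckles, stood at 144, 48.3 and 113 CPM in Healthy and 230 to 417 CPM (median 319) in neoplasia, a log2 fold change of 1.62 ± 0.33 (edgeR adjusted p = 0.118). Clk1, a kinase of SR splicing factors, stood at 99.2, 53 and 72.2 CPM against 141 to 242 CPM (median 192), a log2 fold change of 1.35 ± 0.26. Ccnl2, a cyclin tied to splicing, stood at 61.5, 41.5 and 44.6 CPM against 81.9 to 189 CPM (median 126), a log2 fold change of 1.40 ± 0.30. PanIN and Tumor lay close for Neat1, at 1.57 and 1.67. All 3 genes were among the 583 of 24133 that DESeq2 called higher. They were picked by their values in the same counts, so those calls are no separate support.

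Further list members with arms apart included Irf3, a factor that induces interferon. Irf3 stood at 45.7, 52.1 and 30.5 CPM in Healthy against 58.4 to 80.1 CPM in neoplasia. Its arms stayed apart in all 3 scalings, as did those of 1.7% of all genes. Ndrg1, a hypoxia-responsive gene, stood at 85, 57 and 59.4 CPM against 85.3 to 210 CPM, and Nr4a3, an orphan nuclear receptor, at 55.1, 18.5 and 30.9 CPM against 56 to 87.5 CPM. For both, Healthy 1 lay at the edge of the neoplasia range. Nfe2l2, the master factor of the oxidative stress response, stood at 37.9, 33.7 and 19.1 CPM against 38.9 to 63.4 CPM. Irf3 was the 1 of 21 Toll-like receptor and adaptor genes apart (4.76%), and Ndrg1 the 1 of 24 glycolysis and hypoxia genes (4.17%). Nr4a3 was the 1 of 24 immediate early genes (4.17%), and Nfe2l2 the 1 of 20 oxidative stress genes (5%). These shares are near the 3.64% of all genes. Without TMM factors the arms of Ndrg1, Nr4a3 and Nfe2l2 overlapped, and by TPM those of Ndrg1 and Nr4a3.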
